A study of Mus musculus with 16 samples.

Results

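Emp1, Osbpl3, Lpcat2 and Gramd1c are 4 protein-coding genes, of 51912 genes in the table, that were taken from outside immunoglobulin loci for their large change between the plasmablast precursors (cMyc+prePB) and the early stage (cMyc+early) of positively selected germinal center (GC) B cells. Emp1 and Osbpl3 were on in cMyc+prePB and off in cMyc+early, and Lpcat2 and Gramd1c were low or off in cMyc+prePB and on in cMyc+early. The members were chosen from that contrast, so its values are a description here. Across the other subpopulations the 4 genes parted. At a floor of 3 reads, Osbpl3 was off only in cMyc+early, and Gramd1c was low only in cMyc+prePB. Emp1 was under the floor in 1 library of each late subpopulation, and Lpcat2 had 0 reads in 2 cMyc+lateCD23lo libraries.

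Spleen cells of cMyc gfp/gfp mice, whose own cMyc gene is fused with GFP so that fluorescence reports cMyc protein, were sorted 7 d after intraperitoneal immunization with sheep red blood cells (SRBC). Mice of both sexes, aged 6 to 15 weeks, were used, and cells bearing CD43 were depleted before the sort. All 4 subpopulations carried the reporter and were B220+, CD38low, CD95+ and positive for GFP-cMyc. cMyc+prePB was sorted as CD69hi, and the other 3 by both CD23 and CD21/35, which were high in cMyc+early, intermediate in cMyc+lateCD23int and low in cMyc+lateCD23lo, with 4 libraries each. Every group therefore carries the fusion protein, and no library comes from cells with untagged cMyc or from cells negative for cMyc. The paper parts GC cells into a light zone and a dark zone by CXCR4 and CD86. It gated cMyc+early and both late subpopulations as light zone cells, after CD69hi and dark zone cells were taken out. Zone markers did not define cMyc+prePB, which the paper found to be mostly but not only light zone cells. Comparisons with cMyc+prePB thus also differ in zone gating. The labels do not say whether libraries of a group came from separate animals or pools, so p-values measure only the spread between these libraries.

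B cells that win T cell help in the light zone of a GC switch on cMyc for a short time, and some of them leave as plasmablasts. The 4 genes encode proteins of membranes and their lipids. Emp1 (epithelial membrane protein 1) is a small protein of the PMP22 family that spans the membrane several times. Osbpl3 is a lipid transfer protein related to the oxysterol-binding protein, found where the endoplasmic reticulum touches the plasma membrane. Lpcat2 puts an acyl chain back on lysophosphatidylcholine and also makes platelet-activating factor, a signaling lipid. Gramd1c (Aster-C) is an endoplasmic reticulum protein with a GRAM domain that moves cholesterol from the plasma membrane inward.

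In GRCm38, Emp1 lies on chromosome 6 at 135362545 to 135383173 on the plus strand. Osbpl3 lies on the same chromosome at 50293330 to 50456201 on the minus strand. Lpcat2 is on chromosome 8 at 92855339 to 92919279, plus strand, and Gramd1c on chromosome 16 at 43980350 to 44063345, minus strand. The 250 bases before an annotated start of each gene are shown because the genes were chosen as on or off in opposite directions, so that these starts can be compared. They come from RefSeq promoters of GRCm38.p6, which held all 4 genes, at a start that an annotated transcript also uses, within 6 bases. For Emp1 and Lpcat2 this is also the start of a transcript that GENCODE marks as principal. The starts used for Osbpl3 and Gramd1c lie 73333 and 35400 bases from the nearest principal start, so their windows are not those of the principal transcripts. Capitals mark matches to the searched motifs, and each sequence is written 5′ to 3′ on the strand of its gene.
Emp1, chr6:135362681-135362930, plus strand: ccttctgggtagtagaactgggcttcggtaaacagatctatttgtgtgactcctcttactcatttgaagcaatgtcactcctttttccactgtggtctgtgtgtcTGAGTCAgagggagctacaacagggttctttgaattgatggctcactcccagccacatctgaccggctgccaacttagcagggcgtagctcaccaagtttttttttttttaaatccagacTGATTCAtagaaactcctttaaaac
Osbpl3, chr6:50456171-50456420, minus strand: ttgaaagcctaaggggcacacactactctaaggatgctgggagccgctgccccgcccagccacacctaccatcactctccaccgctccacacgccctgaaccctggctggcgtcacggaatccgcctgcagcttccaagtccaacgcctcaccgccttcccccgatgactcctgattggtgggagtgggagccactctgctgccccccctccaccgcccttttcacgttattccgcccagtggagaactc
Lpcat2, chr8:92855083-92855332, plus strand: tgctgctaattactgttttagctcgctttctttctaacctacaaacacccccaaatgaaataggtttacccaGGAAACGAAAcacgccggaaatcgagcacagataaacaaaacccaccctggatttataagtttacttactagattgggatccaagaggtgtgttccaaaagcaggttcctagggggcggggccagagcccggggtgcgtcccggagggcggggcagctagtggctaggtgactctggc
Gramd1c, chr16:44027946-44028195, minus strand: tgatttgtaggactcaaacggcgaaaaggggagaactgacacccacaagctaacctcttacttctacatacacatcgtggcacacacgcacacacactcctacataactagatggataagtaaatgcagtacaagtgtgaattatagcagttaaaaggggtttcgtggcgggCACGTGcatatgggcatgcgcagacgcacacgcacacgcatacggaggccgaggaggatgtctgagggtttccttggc

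6 motifs were searched on both strands in these windows. They were the Myc E-box CACGTG, the E protein E-box CAGGTG, the AP-1 and BATF motif TGANTCA, the PU.1-IRF composite (GGAA and, after any 2 bases, GAAA), the sterol response motif TCACNCCAC and the NF-kB consensus. The Emp1 window held TGANTCA at 2 places, as TGAGTCA from 145 to 139 bases and as TGATTCA from 25 to 19 bases before the start. Of 32817 RefSeq promoter windows of this length, 6.75% held at least 1 such match and 0.338% held 2 or more. The Lpcat2 window held GGAAACGAAA from 178 to 169 bases before the start, a match to the PU.1-IRF composite, which 2.30% of promoters hold. The Gramd1c window held CACGTG from 78 to 73 bases before the start, as 6.02% of promoters do, and of the windows of its other 2 RefSeq starts 1 held a match and the other held 0. The window of the other Emp1 start, at 135367493, held 0 matches to TGANTCA. The Osbpl3 window matched none of the 6, and no motif was matched in more than 1 of the 4 windows. These are matches of letters and say nothing of binding in these cells. G and C made up 62.8% of the Osbpl3 window and 44.4% of the Emp1 window, against a median of 52.4% over all windows.

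The libraries were of similar depth, with 19812080 to 25795815 reads recovered from the deposited values. Values are normalized counts, which the authors scaled by a factor of each library, and 1 read was worth about 1 of them. A floor of 3 reads, 2.48 to 3.23 normalized counts depending on the library, was used as the limit below which a gene is called off, and it covers counting error only. The B cell genes Ms4a1, Ptprc and Cd79b had the highest means of 7 markers, whose sum was 111733 or more in every library. Rgs13 and Fas were among the most abundant of the 6 GC B cell genes, at a sum of 20959.5 or more in every library. Of the sorting markers, Cr2, which encodes CD21/35, fell in cMyc+prePB against cMyc+early by 1.90 on the log2 scale (SE 0.342, limma adjusted p = 0.0269). Fcer2a, which encodes CD23, exceeded its cMyc+lateCD23lo level in cMyc+early by 2.63 on that scale (SE 0.390, limma adjusted p = 0.00434), and Cd69 and Myc were called in none of the 6 comparisons of subpopulations. Mean Cr2 was 6638 normalized counts in cMyc+early, 6928 in cMyc+lateCD23int and 4738 in cMyc+lateCD23lo, so its RNA was not highest in cMyc+early. These counts are from sorted bulk cells, where fewer cells with a transcript and less of it per cell cannot be told apart.

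Emp1 stood at 82.8, 55.4, 199 and 272 normalized counts in replicates 1 to 4 of cMyc+prePB, and at 2.10, 0.885, 1.92 and 0 in those of cMyc+early. All cMyc+early libraries were at or under the floor, with 5 Emp1 reads in all of 94290309 recovered reads, against 667 of 95042242 in cMyc+prePB. Of the tested genes, 1.08% were at or under the floor in all 4 cMyc+early libraries. The mean of cMyc+prePB, 152 ± 101 (SD, n = 4), was at least 48.5-fold the highest floor of cMyc+early, and its lowest library at least 17.6-fold. Emp1 in cMyc+lateCD23int stood at 41.8, 40.7, 1.04 and 9.29 normalized counts. In cMyc+lateCD23lo it stood at 2.16, 31.8, 4.08 and 72.4. Both late subpopulations thus held libraries with Emp1 well above the floor and 1 library each under it, and the highest cMyc+lateCD23lo library lay within the range of cMyc+prePB. The cMyc+lateCD23int libraries did not overlap with cMyc+prePB, and 1 of them was in the range of cMyc+early. From the highest mean to the lowest the order was cMyc+prePB, cMyc+lateCD23lo, cMyc+lateCD23int and cMyc+early, in which each subpopulation overlapped with the next.

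Osbpl3 stood at 204, 181, 46.9 and 38.8 normalized counts in replicates 1 to 4 of cMyc+prePB. It was at 0, 1.77, 1.92 and 0.903 in those of cMyc+early, all at or under the floor, with 5 reads in all. The mean of cMyc+prePB, 118 ± 87.1 (SD, n = 4), was at least 37.4-fold the floor of cMyc+early. Replicates 1 and 2 were the high ones of cMyc+prePB for Osbpl3, whereas replicates 3 and 4 were the high ones for Emp1, so the 2 genes did not rank the cMyc+prePB libraries alike. Osbpl3 in cMyc+lateCD23int stood at 7.96, 77.4, 61.2 and 112 normalized counts, and in cMyc+lateCD23lo at 33.4, 205, 37.7 and 123. It was above the floor in all 12 libraries outside cMyc+early. The ranges of cMyc+prePB, cMyc+lateCD23int and cMyc+lateCD23lo overlapped, so that no order of these 3 can be given beyond their spread, with means of 118, 64.5 and 99.9. cMyc+early was thus the 1 subpopulation that stood apart for Osbpl3.

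Lpcat2 stood at 1.07, 1.65, 0 and 0 normalized counts in replicates 1 to 4 of cMyc+prePB, 3 reads in all, and 1.18% of tested genes were at or under the floor in all 4 of these libraries. In cMyc+early it stood at 70.2, 59.3, 90.5 and 98.4, a mean of 79.6 ± 18.0 (SD, n = 4). That mean was at least 24.7-fold the highest floor of cMyc+prePB, and the lowest cMyc+early library at least 18.4-fold. The values of Lpcat2 in cMyc+lateCD23int were 45.8, 32.6, 65.4 and 24.2 normalized counts. Those in cMyc+lateCD23lo were 36.6, 0, 0 and 30.6. The cMyc+lateCD23lo libraries thus fell into 2 with Lpcat2 at the level of cMyc+lateCD23int and 2 with no read. From the highest mean to the lowest the order was cMyc+early, cMyc+lateCD23int, cMyc+lateCD23lo and cMyc+prePB. In this order each subpopulation overlapped with the next, while cMyc+early did not overlap with cMyc+lateCD23lo, nor cMyc+lateCD23int with cMyc+prePB.

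Gramd1c stood at 0, 42.2, 4.51 and 0 normalized counts in replicates 1 to 4 of cMyc+prePB. It stood at 244, 150, 130 and 135 in cMyc+early, at 180, 174, 144 and 185 in cMyc+lateCD23int, and at 80.8, 140, 113 and 149 in cMyc+lateCD23lo. Every library outside cMyc+prePB was higher than every library of it. Gramd1c was off in 2 cMyc+prePB libraries only, and replicate 2 alone held 51 of the 56 reads of that group. Without that library the log2 difference from cMyc+early moved from -5.35 to -6.51. The mean of cMyc+early, 165 ± 53.5 (SD, n = 4), was 14.1-fold the mean of cMyc+prePB, 11.7 ± 20.4. The 3 subpopulations outside cMyc+prePB overlapped with one another, at means of 165, 171 and 121.

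**Figure D1:**
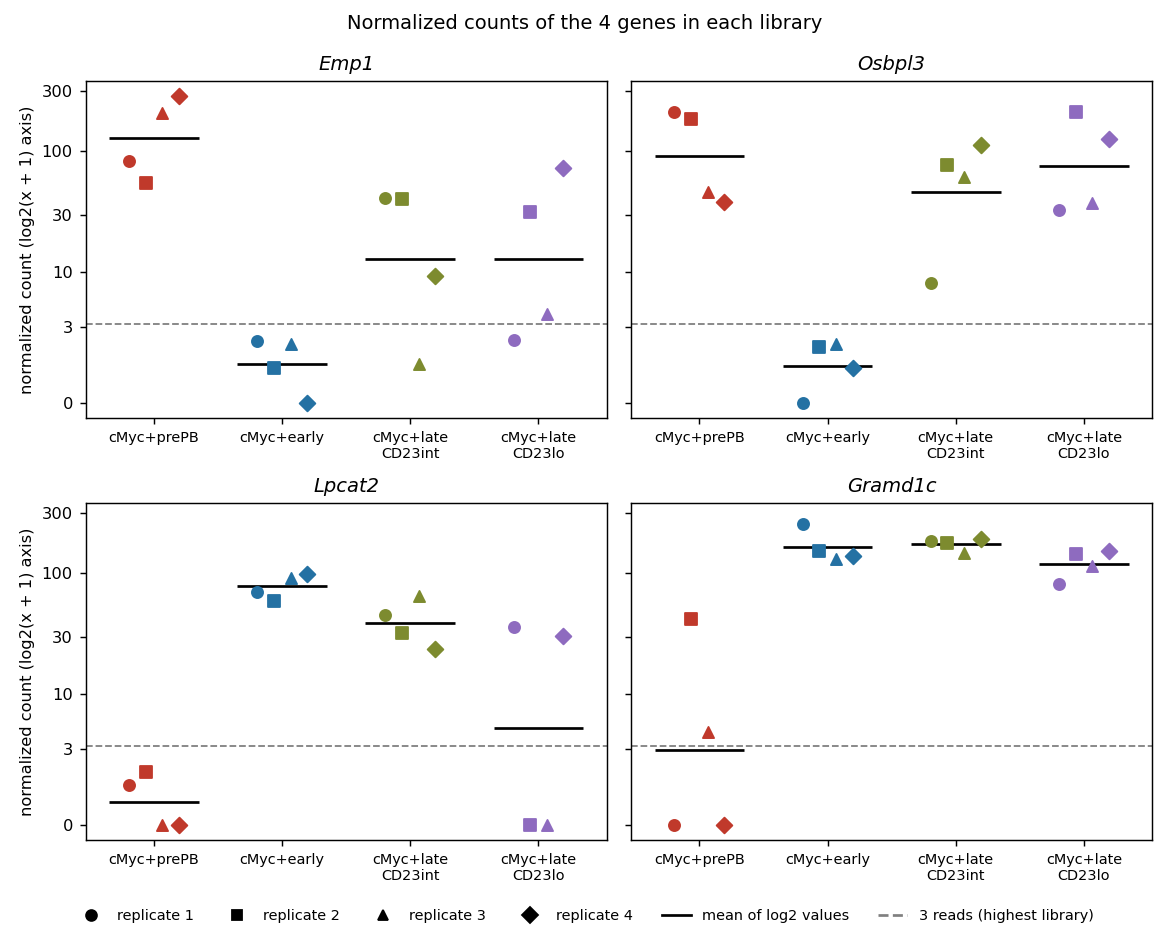
Normalized counts of Emp1, Osbpl3, Lpcat2 and Gramd1c in each of the 16 libraries, on an axis spaced as log2 of the value plus 1, with 1 symbol shape per replicate number, a bar at the mean of the log2 values of 4 libraries and a dashed line at 3 reads in the library where that is highest (3.23). Emp1 and Osbpl3 are under the line in all cMyc+early libraries, Lpcat2 in all cMyc+prePB libraries and 2 of cMyc+lateCD23lo, and Gramd1c in 2 cMyc+prePB libraries.

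Per kb of annotated exons, which allows levels of different genes to be compared, the genes were all of modest level where they were on. In cMyc+prePB the level was 25.7 ± 17.1 normalized counts per kb for Emp1 and 13.1 ± 9.65 for Osbpl3 (SD, n = 4). In cMyc+early it was 23.5 ± 5.31 for Lpcat2 and 32.9 ± 10.7 for Gramd1c. Lpcat2 and Gramd1c varied little in cMyc+early, with the highest library 1.66 and 1.88 times the lowest. In cMyc+lateCD23int, where both were also on, the highest library was 2.71 and 1.28 times the lowest. Emp1 and Osbpl3 varied more among cMyc+prePB libraries, where the highest was 4.91 and 5.27 times the lowest.

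Between cMyc+prePB and cMyc+early, the log2 difference was 5.96 (SE 1.16) for Emp1, 5.53 (SE 0.927) for Osbpl3, -5.69 (SE 1.14) for Lpcat2 and -5.35 (SE 0.891) for Gramd1c. All differences are of log2(normalized count + 1), a scale that understates the change of genes near 0. The limma fit called 24 of 12505 tested genes in this contrast, 0.192%, with 9 higher and 15 lower in cMyc+prePB. With only the 8 libraries of both groups in the fit, limma called 0 genes (904 at an unadjusted p under 0.05), and edgeR on the recovered reads of all libraries called 8. Groups without overlap were found for 4.23% of the tested genes, and all 4 members were among them by their choice. Emp1 and Osbpl3 were 2 of 9 genes (0.072%) above the floor in every cMyc+prePB library and at or under it in every cMyc+early library. Lpcat2 was 1 of 9 genes (0.072%) with the opposite pattern, and Gramd1c was not one of them because 2 cMyc+prePB libraries were above the floor.

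The members were not in every respect the genes with the largest change. The predicted gene Gm13496 was higher by 5.56, a little more than Osbpl3, but missed the threshold. Among called genes outside immunoglobulin loci, the next ones higher in cMyc+prePB were Il10, which encodes an anti-inflammatory cytokine, at 5.04, and Emb, which encodes the adhesion protein embigin, at 2.16. The next lower ones were Gcnt3, a mucin-type glycan enzyme, at -5.01, and Ppfia4, a liprin scaffold protein, at -4.85. Both were at or under the floor in all cMyc+prePB libraries, as Lpcat2 was.

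The contrasts of cMyc+prePB or cMyc+early with the late subpopulations share libraries with the one that chose the genes, and are given as values. The log2 difference of Emp1 in cMyc+prePB was 3.19 from cMyc+lateCD23int and 3.18 from cMyc+lateCD23lo (SE 1.16 each). It differed by -2.77 and -2.79 between cMyc+early and these 2. The log2 difference of Osbpl3 from cMyc+lateCD23int and cMyc+lateCD23lo was 0.96 and 0.27 for cMyc+prePB, but -4.57 and -5.27 for cMyc+early (SE 0.927 each). For Lpcat2 the corresponding differences were -4.72 and -1.94 for cMyc+prePB, and 0.97 and 3.75 for cMyc+early (SE 1.14 each). For Gramd1c they were -5.45 and -4.92 for cMyc+prePB, and -0.09 and 0.44 for cMyc+early (SE 0.891 each). Emp1 thus had its late levels between the 2 extremes, Osbpl3 had them with cMyc+prePB, Gramd1c had them with cMyc+early, and Lpcat2 had that of cMyc+lateCD23int nearer to cMyc+early. Of the tested genes, 5.21% and 6.56% did not overlap between cMyc+prePB and cMyc+lateCD23int or cMyc+lateCD23lo, against 3 and 1 of the 4 members. Between cMyc+early and these 2 the shares were 2.48% and 6.23%, against 1 and 3 members. Emp1 parted cMyc+early from cMyc+lateCD23lo only by values under the floor, 2.10 and 2.16. The counts of members follow in part from their choice on shared libraries, and are no test of them.

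**Figure D2:**
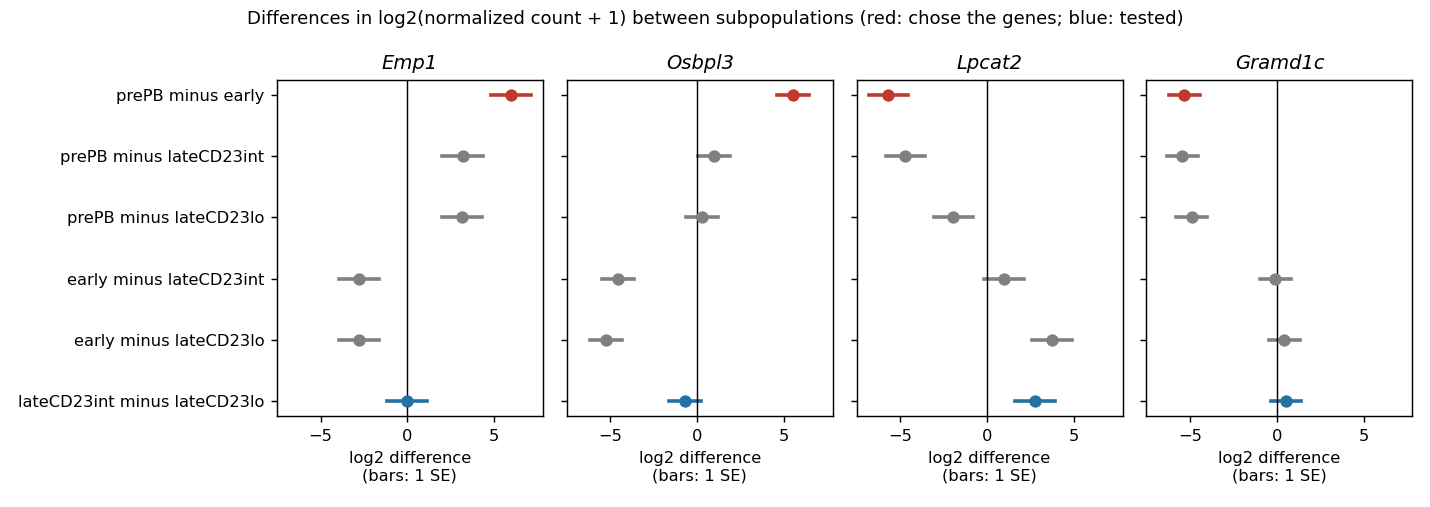
Difference in log2(normalized count + 1) of each gene in the 6 comparisons of subpopulations, with bars of 1 standard error of the limma fit over 16 libraries (4 per subpopulation). The red point is the contrast that chose the genes and the blue point the tested one, where Lpcat2 stands at 2.78 and the other 3 genes lie within 1 SE of 0.

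Of the 6 comparisons, only that of cMyc+lateCD23int with cMyc+lateCD23lo used no library of the contrast that chose the genes, and it asks whether the 4 genes vary with CD23 among late cells. None of the 4 genes passed the limma test, which called 1 of 12505 genes here, 0.008%. Lpcat2 had the largest difference of the 4, 2.78 on the log2 scale (SE 1.14, 95% interval 0.39 to 5.16, limma adjusted p = 0.754, with the unadjusted p under 0.05), and rested on the 2 cMyc+lateCD23lo libraries without a read. The difference of Emp1 was -0.011 (95% interval -2.45 to 2.42, limma adjusted p = 0.9998). That of Osbpl3 was -0.70 (95% interval -2.64 to 1.25, limma adjusted p = 0.939) and that of Gramd1c 0.53 (95% interval -1.34 to 2.40, limma adjusted p = 0.956). These intervals leave room for differences of more than 2 on the log2 scale for each gene, so that equal levels were not shown. The ranges of all 4 genes overlapped between the 2 late subpopulations, where 3.77% of tested genes did not overlap.

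The genes related to the 4 were taken from lists. 6 lists of related genes held 71 gene names besides the members, of which 69 were in the table and 58 were tested. Of these 58, 0 were called by limma in any of the 6 comparisons. Over all tested genes only 0.192% were called between cMyc+prePB and cMyc+early, so that 0 of 58 is near the background and no result about these genes. The shares called in the other comparisons were 0.144% and 0.264% for cMyc+prePB against cMyc+lateCD23int and cMyc+lateCD23lo, and 0.008% and 0.28% for cMyc+early against them. Between cMyc+prePB and cMyc+early 4 had an unadjusted limma p under 0.05, the smallest adjusted p was 0.554, and edgeR on the recovered reads called 0 as well. Their median log2 difference was -0.020, against 0.013 over all tested genes, and they ranged from -2.38 to 2.56.

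Of the EMP family, Emp3 was the member that was broadly expressed, at 381 ± 92.4 normalized counts in cMyc+prePB and 593 ± 146 in cMyc+early (SD, n = 4), a log2 difference of -0.63 (SE 0.291, limma adjusted p = 0.575). Emp2 had a mean of 2.46 over all libraries and Pmp22, the myelin protein of the family, was at 0 in every library. Of the oxysterol-binding relatives, 8 were tested besides Osbpl3, and none passed. Osbpl9, a sterol and phosphoinositide carrier, led them, with 2217 ± 218 normalized counts in cMyc+prePB against 2590 ± 464 in cMyc+early. Osbpl8, which exchanges phosphatidylserine at contact sites, and Osbpl2 followed it, at log2 differences of -0.010 and 0.48. The 3 genes were above the floor in all 16 libraries, which follows from naming the most abundant ones. Osbpl5 had the highest difference of the tested relatives, 2.56 (SE 1.40, limma adjusted p = 0.652), and was above the floor in 11 of 16 libraries. It ranged from 4.51 to 79.4 normalized counts in cMyc+prePB and from 0.962 to 79.6 in cMyc+early. Osbpl1a, added after its values were seen, ranged from 0.902 to 36.4 and from 0 to 50.6 (log2 difference 1.86, SE 1.57, limma adjusted p = 0.810).

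Of the 14 tested acyltransferases besides Lpcat2, 7 had a positive and 7 a negative difference between cMyc+prePB and cMyc+early, and none passed. The most abundant were Lpgat1, Gpat4 and Agpat5, at log2 differences of 0.125, -0.034 and 0.40. Lpcat1 and Lpcat3, chosen here after their values were seen because they carry out the same reacylation step as Lpcat2, were above the floor in all 16 libraries. Lpcat3 stood at 897 ± 203 normalized counts in cMyc+prePB and 1098 ± 278 in cMyc+early, a log2 difference of -0.29 (SE 0.250, limma adjusted p = 0.819). For Lpcat1 the values were 736 ± 134 and 1039 ± 117, a log2 difference of -0.51 (SE 0.261, limma adjusted p = 0.621). Libraries without Lpcat2 reads thus still held these 2 acyltransferases. Of the genes that make or break down platelet-activating factor, 10 were tested and none passed. Pafah1b1 and Pafah1b2, of the complex that hydrolyzes it inside cells, and the choline phosphotransferase Cept1 led this list, at log2 differences of -0.048, 0.26 and -0.37.

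Of the GRAM domain relatives, 4 were tested besides Gramd1c, at log2 differences of -0.46 to 0.19. Gramd3 was by far the most abundant of the family, at 7269 ± 1057 normalized counts in cMyc+prePB and 6350 ± 794 in cMyc+early. Gramd1a (Aster-A) stood at 128 ± 35.4 and 146 ± 84.2, a log2 difference of 0.14 (SE 0.657, limma adjusted p = 0.986), and was above the floor in all 16 libraries. Gramd4 stood at 94.9 ± 50.1 and 87.4 ± 51.3. Gramd1b (Aster-B), which is outside the naming rule and was added after its values were seen, had a mean of 18.5 over all libraries and was above the floor in 9 of 16, with 78.7 in its highest cMyc+lateCD23lo library. A list built around contact sites between endoplasmic reticulum and plasma membrane also held genes that act elsewhere. Of its 21 tested genes, 8 had a positive and 13 a negative difference, and none passed. Vapa, which anchors Osbpl3 and its relatives to the endoplasmic reticulum, had 3698 ± 77.7 normalized counts in cMyc+prePB against 3351 ± 394 in cMyc+early. Efr3a, which anchors a phosphoinositide kinase at the plasma membrane, and Npc2, a cholesterol carrier of lysosomes, differed by -0.25 and 0.35.

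**Figure D3:**
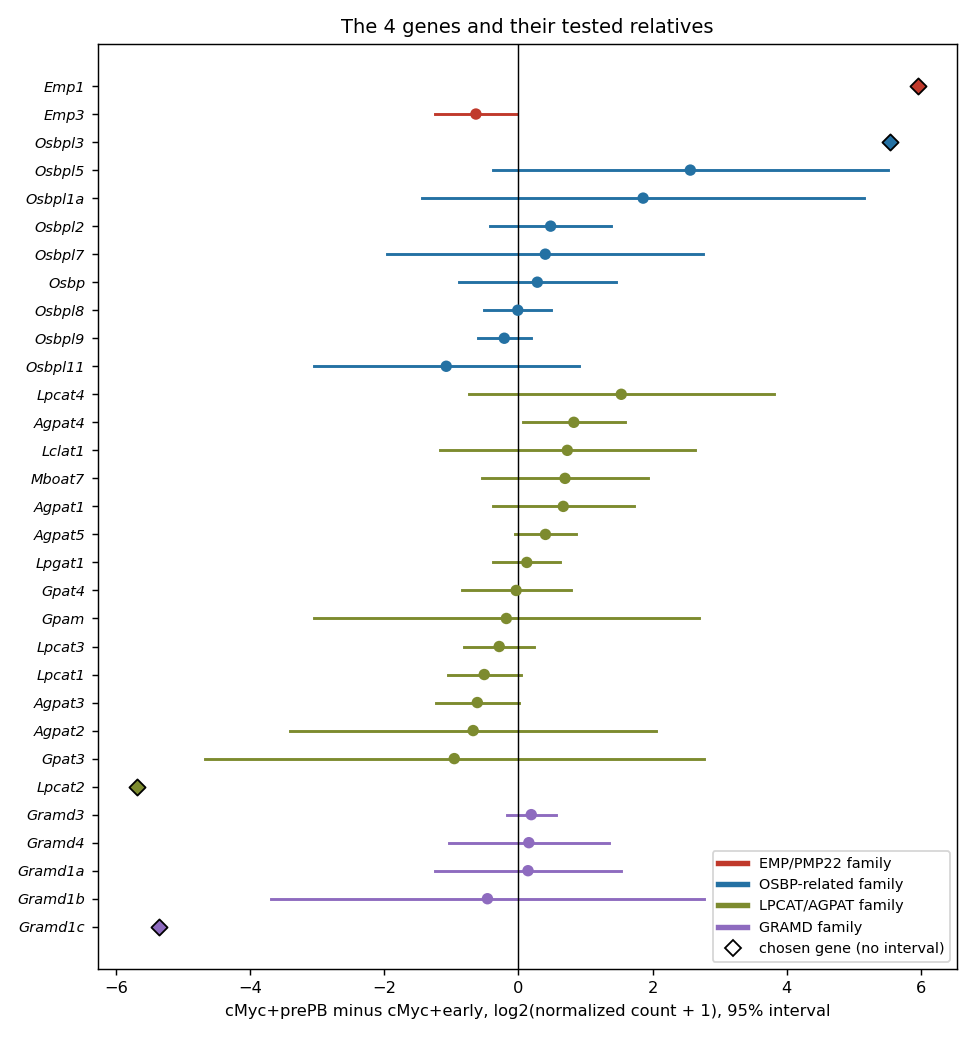
Difference in log2(normalized count + 1) between cMyc+prePB and cMyc+early (4 libraries each) for the tested genes of the 4 families, with the 95% interval of the limma fit for relatives, and diamonds without interval for the 4 chosen genes. Emp1 and Osbpl3 stand at 5.96 and 5.53 and Lpcat2 and Gramd1c at -5.69 and -5.35, whereas the relatives lie between -1.08 and 2.56, and none of them passed the test.

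The neighbors of the 4 genes were looked at after their values were seen, to ask whether a whole region moved. Of the 2 nearest tested genes on each side, 16 in all, none was called between cMyc+prePB and cMyc+early, where 0.192% of all tested genes were, so that the count says little about the regions. On the side of Emp1, Fam234b, 117590 bp away, stood at 96.7 ± 36.4 normalized counts in cMyc+prePB and 24.8 ± 17.1 in cMyc+early (log2 difference 2.29, SE 1.13, limma adjusted p = 0.605). Of the neighbors of Lpcat2, 4831440D22Rik, 1380741 bp away, stood at 46.4 ± 48.7 and 2.48 ± 4.97, the opposite direction to Lpcat2 (log2 difference 3.31, SE 1.74, limma adjusted p = 0.631). The nearest to Osbpl3 was Gsdme, a gasdermin, at 2071 ± 814 and 1876 ± 673. Next to Gramd1c, Qtrt2, a subunit of a tRNA-modifying enzyme, stood at 429 ± 175 and 706 ± 123 (log2 difference -0.80, SE 0.329, limma adjusted p = 0.518). Ccdc191, 16036 bp away from Gramd1c, stood at 442 ± 176 and 442 ± 200. Exons of Lpcat2 overlap with those of the antisense gene Gm45472, whose reads cannot be told apart without strand, and that gene was near 0 in these libraries.

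Patterns most like those of the 4 genes over the 16 libraries are given as Pearson's r of log2 values, for description only, since the libraries share their subpopulations and the genes were picked as the highest of 12505. For Emp1 these were Rwdd1 (r = 0.837), Rps23-ps1, Mrpl52, Rpl10 and Tomm20 (r = 0.820), genes of ribosomes and mitochondria for the most part, which changed far less in size. Rwdd1, for one, had means of 3058 normalized counts in cMyc+prePB and 2395 in cMyc+early. For Osbpl3 the closest was Il10 (r = 0.907), with means of 71.4, 1.23, 67.2 and 150 in cMyc+prePB, cMyc+early, cMyc+lateCD23int and cMyc+lateCD23lo. Rgs10, Gng3, Tcf7l2 and AC153536.2 came next, down to r = 0.818. Both genes had their lowest mean in cMyc+early, while Il10 was highest in cMyc+lateCD23lo and Osbpl3 in cMyc+prePB.

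For Lpcat2 the closest were Cltc (r = 0.834), AC154219.1, Ablim1, Lifr and Morn1 (r = 0.793). Lifr, a receptor of leukemia inhibitory factor, had means of 3.54, 117, 176 and 11.5 normalized counts in the same order of subpopulations, low in both groups in which Lpcat2 was low. For Gramd1c they were Tsc22d1 (r = 0.875), Tmx1, Hesx1, Prkd2 and Ptpre (r = 0.837). Prkd2, a protein kinase D, had means of 92.7, 308, 299 and 224, and Hesx1, a homeobox gene, had 7.34, 78.7, 69.2 and 43.5. Between the members, r was 0.622 for Emp1 with Osbpl3, 0.653 for Lpcat2 with Gramd1c, and -0.674 to -0.344 for the 4 mixed pairs. These values follow in part from the choice of the genes.

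Markers of other cells were summed in each library. Of the plasma cell genes, led by Jchain, Mzb1 and Xbp1, the sum was 48464.8 to 122980 normalized counts in cMyc+prePB and 32225.9 to 39886.1 in cMyc+early, with 7 of 7 genes in the table. Jchain, the joining chain of IgA and IgM, was lower in cMyc+early than in cMyc+lateCD23lo, at a log2 difference of -1.44 (SE 0.288, limma adjusted p = 0.0394). The highest plasma cell sum was that of cMyc+prePB replicate 1, which had 82.8 of Emp1 and 204 of Osbpl3. The T cell sum, nearly all Lck, with Trac and Thy1 far behind, was 4634.44 to 7141.58 in cMyc+prePB and 2195.63 to 3929.8 in cMyc+early. Of the 8 T cell genes, 4 were tested. Their log2 differences of cMyc+prePB from cMyc+early were all positive, at 0.57 to 1.23, and none passed (smallest limma adjusted p = 0.0989). Cd3e and Cd4, at means of 3.9 and 1.3 over all libraries, were not tested. Stromal and endothelial genes, 8 of 9 in the table and led by Pecam1, Clu and Cdh5, summed to 242.561 to 784.408 in cMyc+prePB and 941.523 to 1328.95 in cMyc+early, while Col3a1, Pdgfrb and Kdr were at 0 in both. The paper counts Pecam1 among the memory B cell genes raised in cMyc+early, so this sum is not of other cells alone. Only 2 of these genes were tested, at log2 differences of -1.42 and 0.093, and none passed (smallest limma adjusted p = 0.0865). These 3 sums did not overlap between cMyc+prePB and cMyc+early, but those of cMyc+prePB overlapped with both late subpopulations. The median plasma cell sum was 58822 in cMyc+prePB, 58307 in cMyc+lateCD23int and 79065 in cMyc+lateCD23lo. For the T cell sum the medians were 5743, 6110 and 5471 in the same order, and for the stromal and endothelial sum 428, 950 and 556. The part of these sums in the levels of the 4 genes was not tested.

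The sum of 10 myeloid genes, led by Lyz2, C1qb and Adgre1, ranged from 1.65 to 654 in cMyc+prePB and from 2.89 to 190 in cMyc+early, and S100a9 was at 0 in all 16 libraries. Emp1 stood at 55.4 in cMyc+prePB replicate 2, where this sum was 1.65, and at 4.08 in cMyc+lateCD23lo replicate 3, where it was highest, at 1175. Lpcat2, which myeloid cells also express, stood at 90.5 in cMyc+early replicate 3, where the sum was 2.89. The highest Emp1 value, 272 in cMyc+prePB replicate 4, was in the library with the highest myeloid sum of that group, 654, and the 55.4 of replicate 2 was the lowest of the group. The part of these cells in the levels of Emp1 and Lpcat2 was not tested. The sums of 6 dendritic cell genes (Flt3, Zbtb46 and Xcr1 in front) were 484 to 872 in cMyc+prePB and 756 to 1043 in cMyc+early, with Clec9a at 0 in both. Those of 8 erythroid and platelet genes, led by the hemoglobin genes Hbb-bt, Hba-a2 and Hbb-bs, were 228 to 3181 and 480 to 2481. Both pairs of ranges overlapped.

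**Figure D4:**
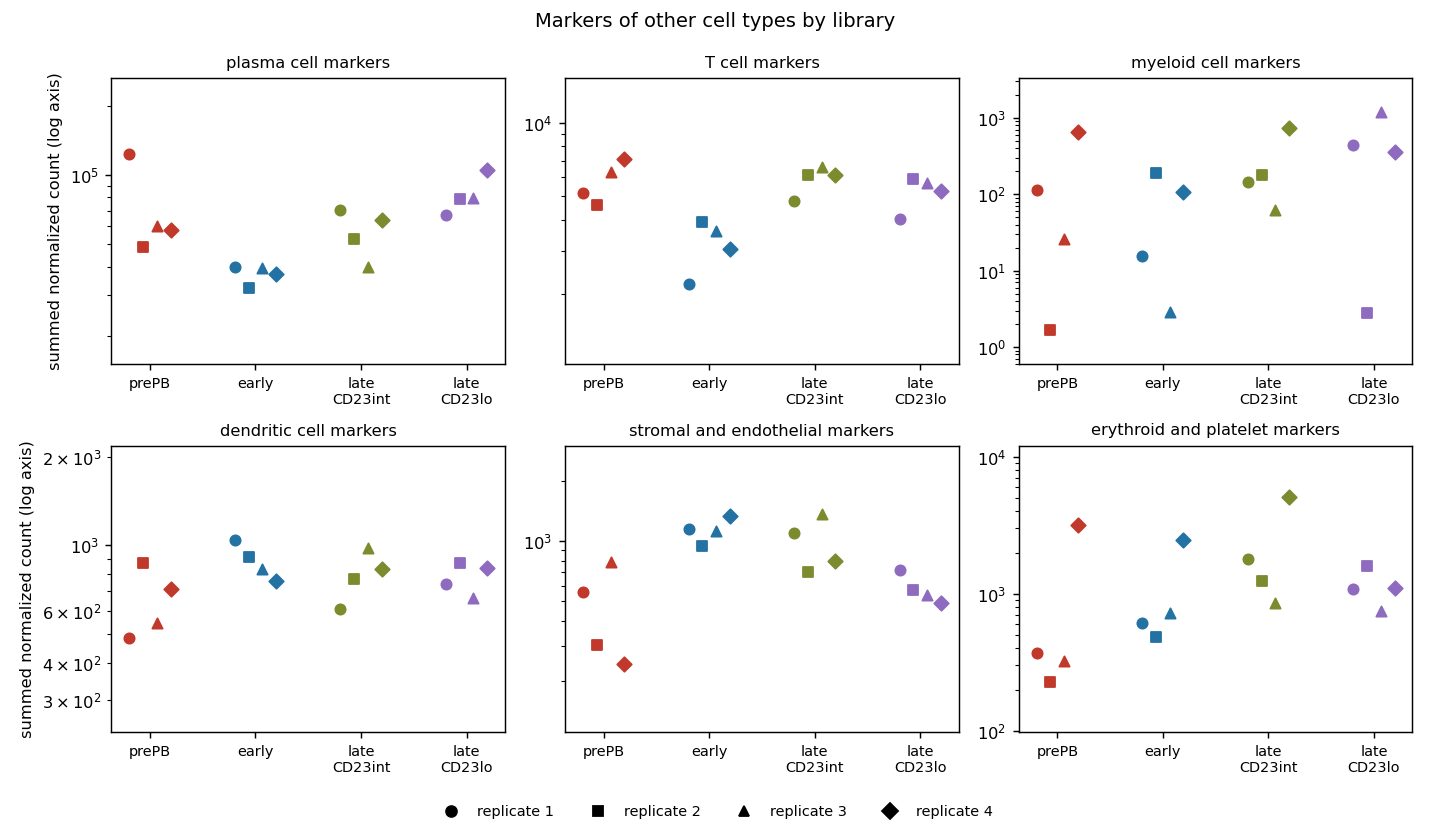
Summed normalized counts of 6 lists of marker genes in each of the 16 libraries, on a log axis, with 1 symbol shape per replicate number. Plasma cell and T cell sums of cMyc+prePB lie above those of cMyc+early and stromal and endothelial sums below. In each of these lists the cMyc+prePB sums overlap with those of both late subpopulations. The myeloid sums range from 1.65 to 1175 with no order by subpopulation.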

How the data were processed

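RNA of 16 libraries was sequenced from 4 sorted cMyc+ GC B cell subpopulations, made with a low-input kit. The submitters' processing notes name Trimmomatic 0.36, STAR 2.5.2a, RSEM 1.2.31, DESeq2 1.20.0, R 3.5.1 and the GRCm38 genome. The values deposited by the authors are a signal for each of 51912 genes, obtained from counts by dividing each library by its own size factor. In each library 100% of the values were whole multiples of the smallest step within 0.02 read, and the multiples were taken as reads (19812080 to 25795815 per library, median 23253313). The precision of a value near the floor is limited to single reads.

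Groups follow the cell type in the labels. The 12505 genes whose mean was 10 or more were fitted as log2(normalized count + 1) with limma 3.58.1 in R 4.3.3, over all 16 libraries in 1 fit, with a prior that follows the mean and a Benjamini-Hochberg threshold of 0.05, and the fit was tested on simulated data. edgeR 4.0.16 (quasi-likelihood) was run on the recovered reads as an alternative that was added after the data were seen. Tables and figures were made with Python 3.11.15, pandas 2.3.3 and matplotlib 3.10.9. Where every library of a group had 3 reads or fewer, the fold is a lower bound against the highest floor of that group. Loci, exons and neighbors come from GENCODE for GRCm38.

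The 4 genes and all gene lists were chosen with earlier results of these data known. Of each list, genes called in any comparison and the 3 most abundant ones are named, with the next 2 called genes per direction outside immunoglobulin loci and the 5 genes most like each member, and others are named as added afterwards. Alternatives were another pseudocount, filter, scaling or prior, a replicate block, a fit of only the groups compared, and leaving out each library. Protein sequences were not used here. Some genes are not reported here.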

Additional observations from a re-analysis of the deposited data

Results flagged for a closer look

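The Gramd1c value of cMyc+prePB replicate 2, 42.2 normalized counts, stood apart from the 0, 4.51 and 0 of the other 3 libraries of its group, with a gap of 0.893 of the range. Chance flags about 1 in 20 such groups if values follow a normal spread, which counts with ties at 0 do not. Every group of each gene that was not off throughout was checked. Its part in other results was not tested. It was still lower than every library of the other subpopulations, the lowest of which held 80.8.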

How the results depend on the processing

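Between cMyc+prePB and cMyc+early the direction of all 4 genes held under each alternative run. Their log2 differences ranged from 4.42 to 6.84 for Emp1, 3.99 to 6.74 for Osbpl3, -6.63 to -3.88 for Lpcat2 and -6.51 to -3.78 for Gramd1c. The smallest sizes were those at a pseudocount of 5, except for Gramd1c, where it was that of edgeR. The 24 called genes became 4 with no filter on low values, 12 without a trend in the prior, 0 with only the groups compared in the fit, 8 by edgeR and 3 to 30 when single libraries were left out. The count was 3 without cMyc+early replicate 4, 4 without replicate 1, 7 without replicate 3 and 14 without replicate 2 of that group, and 8 without cMyc+prePB replicate 2, 3 or 4. The cause was not tested. Of the relatives, 0 were called under each of the 26 alternatives.

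With the replicate block 65 genes were called, and 54 by edgeR with the block. Against cMyc+prePB, the block raised the calls from 18 to 121 for cMyc+lateCD23int and from 33 to 192 for cMyc+lateCD23lo. Against cMyc+early they rose from 35 to 90 for cMyc+lateCD23lo and stayed at 1 for cMyc+lateCD23int. Same-numbered libraries correlated in their deviations by more than 0.1 in 5 of 24 pairs (r from -0.129 to 0.174). Of the 16 libraries, 10 correlated best with one of their own number, out of all libraries of the other subpopulations. Libraries of the same number were a minority of those compared. The labels state no pairing and the main fit held no block, and whether same-numbered libraries share an origin was not tested. The block changed no call of the 4 genes between the late subpopulations, and put Emp1 at 0.030 by edgeR with the block.

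Between cMyc+lateCD23int and cMyc+lateCD23lo none of the 4 genes passed the threshold under any alternative, with adjusted p from 0.414 for Lpcat2 without cMyc+lateCD23lo replicate 1 to 1. The sign of the Emp1 difference, -0.011, turned when all libraries were scaled to 1 total, to 0.010, and ranged from -0.73 to 0.91 when single libraries were left out. That of Osbpl3 ranged from -1.12 to 0.099, and was positive without cMyc+lateCD23int replicate 1. Lpcat2 ranged from 1.93 to 3.67 when single libraries were left out, was 1.93 without cMyc+lateCD23lo replicate 2 or 3 and 1.31 by edgeR, and could not be fitted at a mean of at least 50. With a floor of 1 read, 3 rather than 6 libraries were off for Emp1, and 2 rather than 4 for Osbpl3. With a floor of 10 reads 8 were off for Emp1, 5 for Osbpl3, among them cMyc+lateCD23int replicate 1, and 3 for Gramd1c.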
